A study of Mus musculus with 16 samples.

Results

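The chemokine axis of migratory dendritic cells was followed across the immune cells of B16 melanomas through 6 of the 32285 genes in the count tables: the receptor gene Ccr7, the chemokine genes Ccl17 and Ccl22, their receptor gene Ccr4, the actin-bundling gene Fscn1 and the amino acid oxidase gene Il4i1. They were taken by symbol, and all 6 symbols were found once in each of the 8 matrices. C57BL/6J mice carried subcutaneous tumours from 1000000 implanted Bro4.1 B16 melanoma cells, either control cells or cells without B2m, the light chain of MHC class I. On days 6, 9 and 12 mice were injected intraperitoneally with 100 µg of a CD40 antibody, labelled an agonist, or of rat IgG2a as isotype. Tumours were harvested on day 14. Cells held on CD45 beads were stained with 1 hashtag per mouse, pooled within a group and run on droplet lanes. The isotype groups numbered 5 mice with control and 5 with B2m-null tumours, and the CD40 groups 2 and 4. These numbers rest on the count tables: the labels name 3 hashtags for every lane, while 6 of the 8 tables hold 2 hashtag rows and 2 hold 3, and a mouse here is a hashtag with a row. By the sample labels B2m loss is a property of the mouse, but by the design text of the tumour cells, and the latter reading was used. B2m in the melanoma gate was 1302 and 2061 counts per 1000000 (CPM) in control tumours under isotype and CD40 antibody, and 201 and 455 CPM in B2m-null tumours. In all immune cells it was 3563 and 4709 CPM in control tumours and 2764 and 4161 CPM in B2m-null tumours. The immune cells of mice with B2m-null tumours thus held B2m transcripts. The antibody was given to the whole animal, and the labels name neither the age nor the sex of the mice.

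Dendritic cells that have taken up antigen mature, raise CCR7 and follow its ligands CCL19 and CCL21 through lymphatic vessels to the lymph node, where naive T cells use the same receptor. Mature dendritic cells also make fascin, the Fscn1 product, which bundles the actin of their long processes, and secrete CCL17 and CCL22. Both chemokines bind CCR4, which is known from regulatory and type 2 helper T cells. IL4I1 is a secreted enzyme that oxidises aromatic amino acids. CD40 is the receptor through which helper T cells drive dendritic cell maturation.

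In the GENCODE vM21 annotation of GRCm38, Ccr7 (ENSMUSG00000037944) lies at chr11:99144196-99155077 on the minus strand, Ccr4 (ENSMUSG00000047898) at chr9:114490316-114504916 on the minus strand and Fscn1 (ENSMUSG00000029581) at chr5:142960343-142973185 on the plus strand. Il4i1 (ENSMUSG00000074141) at chr7:44816387-44840809 on the plus strand overlaps Nup62 on the same strand and Atf5 and Tbc1d17 on the other. It is the only one of the 6 that overlaps other genes, and the effect of this on its counts was not measured. Ccl22 (ENSMUSG00000031779) at chr8:94745590-94751699 and Ccl17 (ENSMUSG00000031780) at chr8:94810453-94812036 stand on the plus strand, 58753 bases apart, with Cx3cl1 as the 1 coding gene between them. Because the 2 neighbours bind the same receptor yet were found in partly different cells, their upstream sequences are printed from RefSeq (GRCm38.p6), for Ccl17 chr8:94810203-94810452 and for Ccl22 chr8:94745434-94745589, the latter ended where the GENCODE gene begins. Capitals mark matches to TTC and GAA with 4 bases of any kind between them, the spacing bound by STAT6, or with 3 bases between them, the spacing of other STAT factors.
Ccl17: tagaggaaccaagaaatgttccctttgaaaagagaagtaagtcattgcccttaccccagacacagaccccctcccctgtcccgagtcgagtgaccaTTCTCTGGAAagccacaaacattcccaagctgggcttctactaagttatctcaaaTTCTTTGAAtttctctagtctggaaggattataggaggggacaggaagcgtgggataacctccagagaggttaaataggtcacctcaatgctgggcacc
Ccl22: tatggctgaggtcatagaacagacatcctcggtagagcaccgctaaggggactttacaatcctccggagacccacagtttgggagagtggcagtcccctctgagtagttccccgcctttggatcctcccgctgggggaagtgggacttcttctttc
The Ccl17 stretch held TTCTCTGGAA from -154 to -145 and TTCTTTGAA from -99 to -91, counted from the gene start. No match was found upstream of Ccl22 in the whole window of 250 bases. Both motifs read the same on both strands and the matches do not overlap, and among 32851 RefSeq windows of 250 bases 5.85% held the first motif and 7.02% the second. A consensus for NF-kappaB, present in 7.25% of windows, was in the window of none of the 5 members with an entry, which were all but Ccr7. A match is a description of letters, and factor binding was not measured.

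The 8 lanes held 541.1 M unique molecular identifiers (UMIs) in 116552 barcodes, from 45.99 to 99.26 M a lane. After removal of 11566 hashtag doublets (3.25% to 21.4% of a lane) and of barcodes of low quality, 87493 immune cells were left, of which 73957 were tied to 1 of the 16 mice (1038 to 17245 cells and 3.636 to 60.84 M immune UMIs a mouse). Hashtags tied 55.3% of cells to a mouse in B2m-null isotype replicate 1 and 65.4% in B2m-null CD40 replicate 1, and 83.9% to 96.3% in the other 6 lanes. Both control CD40 lanes are technical replicates of 1 pool of the same 2 mice. Between 41 and 92 barcodes were shared by any pair of lanes, none of them a mature dendritic cell. Cell types were set by gates on marker panels that leave out the 6 genes. The panel genes came from general knowledge, with earlier results of these data known. Levels of the members in a gate are thus a description. The mature dendritic cell (mature DC) gate asked for UMIs of at least 3 of 10 panel genes, among them Cacnb3, Nudt17, Socs2 and Slco5a1, at 1 or more UMI per 1000, and for low T, B, NK and macrophage markers.

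All members but Ccr4 had their highest level in the mature DC gate, which held 1133 of 87493 immune cells. Of all immune UMIs of each gene, this gate held 51.6% for Ccr7 (exact 95% binomial interval 50.9 to 52.3), 60.4% for Ccl22 (59.7 to 61.2), 63.7% for Fscn1 (62.9 to 64.6), 42.5% for Il4i1 (41.1 to 43.8) and 30.3% for Ccl17 (29.2 to 31.4). These intervals cover counting error only. The gate was checked against genes that are neither members nor panel genes: Relb, an NF-kappaB subunit of mature DCs, stood at 346 CPM against 30.4 CPM in all immune cells, Cd200 at 201 against 16.04 CPM and Tbc1d4 at 1926 against 60.8 CPM. For Ccr4, 2 of 117 immune UMIs were in mature DCs, both from 1 cell, and the gene is described with T cells.

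**Figure D1:**
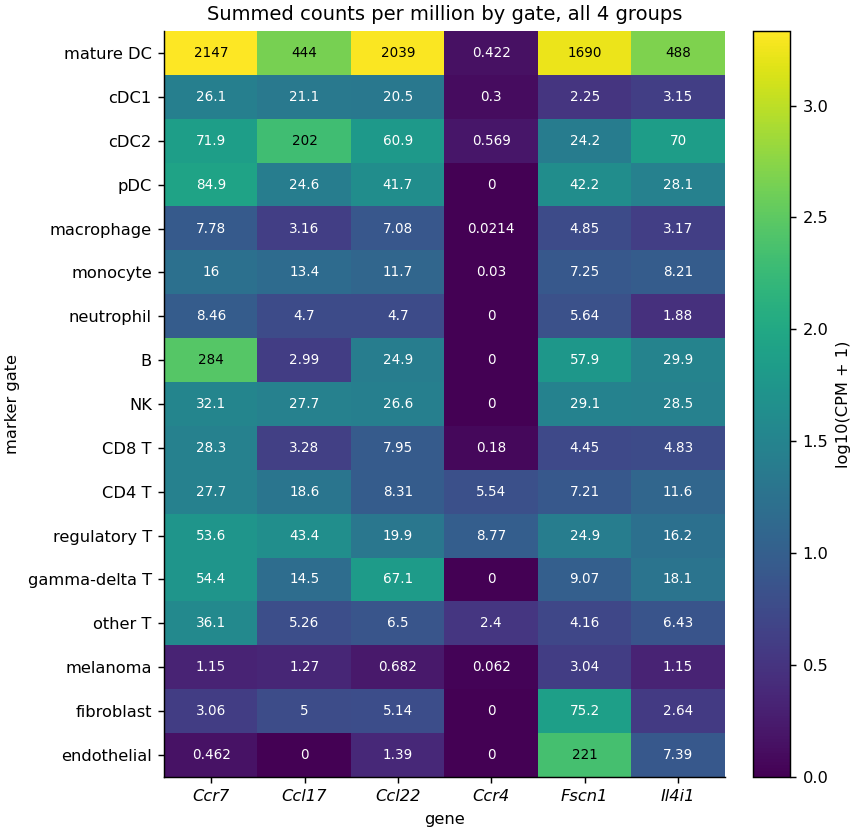
Summed CPM of the 6 genes (columns) in 17 marker gates (rows), all 4 groups together; colour gives log10(CPM + 1) and each tile prints the CPM. Ccr7 stood at 2147 CPM in mature DCs and 284 CPM in B cells, Fscn1 at 1690 CPM in mature DCs and 221 CPM in endothelial cells, and Ccr4 was highest in regulatory T cells at 8.77 CPM.

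Outside mature DCs the members parted. Conventional type 2 dendritic cells (cDC2), which take up antigen in tissue before they mature, held 20.5% of the Ccl17 UMIs (19.5 to 21.4) and 9.03% of the Il4i1 UMIs (8.28 to 9.82), against 2.56% for Ccr7, 2.68% for Ccl22 and 1.35% for Fscn1. cDC1, the cross-presenting type, were low in all: their levels were 26.1 CPM for Ccr7, 21.1 CPM for Ccl17, 20.5 CPM for Ccl22, 3.15 CPM for Il4i1 and 2.25 CPM for Fscn1. Ccr7 was also found in B cells, where 32.1% of 514 cells had a UMI at a median of 1393 UMIs a cell, against 1.35% of macrophages at a median of 4915 UMIs. Fscn1 was found in 2 stromal gates that CD45 beads had carried over, at 221 CPM in 210 endothelial cells (exact Poisson interval 202 to 242) and 75.2 CPM in 762 fibroblasts (69.0 to 81.8). Cells outside every gate held 7.29% to 21.6% of the UMIs of the 5 genes. Mixed cells, with T cell markers and those of macrophages, B cells, mature DCs, cDC1 or plasmacytoid dendritic cells, held 2.66% to 13.6%. Markers of cDC2 did not set a T cell barcode apart as mixed.

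**Figure D2:**
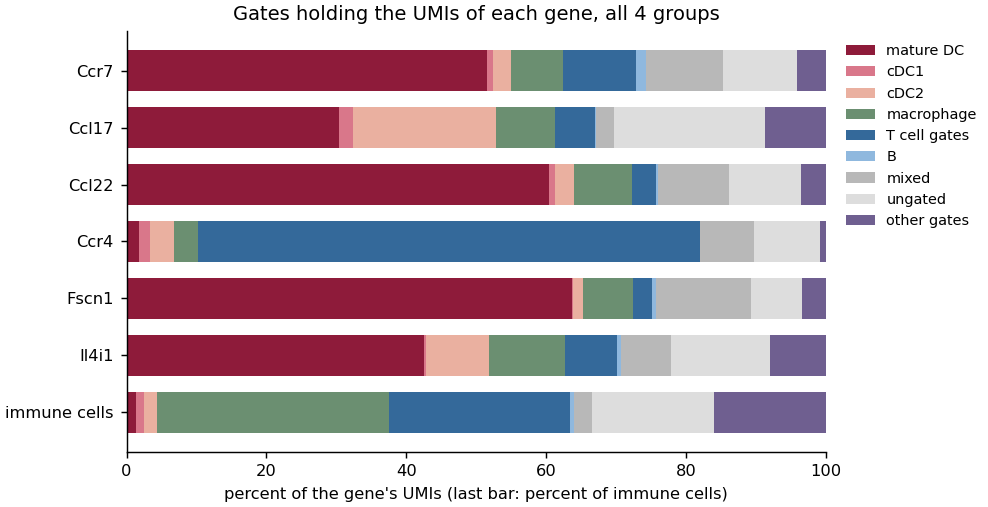
Share of each gene's immune UMIs by marker gate, with the share of immune cells in the last bar (all 4 groups). Mature DCs hold 30.3% to 63.7% of the UMIs of 5 genes, while T cell gates hold most of the UMIs of Ccr4.

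The gate's threshold lay between 2 and 3 panel genes, and levels on both sides are given as a description. In cDC1 and cDC2 with no mature DC panel gene detected, Ccr7 was at 12.3 CPM (1699 cells), with 1 panel gene at 40.4 CPM (662 cells) and with 2 at 130 CPM (227 cells). Mature DCs with 3 panel genes stood at 1877 CPM (238 cells), those with 4 at 2306 CPM, with 5 at 2211 CPM and with 6 or more at 2142 CPM (386 cells). Fscn1 was 1.72, 10.7 and 38.1 CPM below the gate, then 1170, 1399, 1867 and 1881 CPM with 3, 4, 5 and 6 or more. Ccl22 was 17.7, 37.5 and 106 CPM, then 1480, 2452, 2057 and 2047 CPM. Ccl17 did not rise in steps below the gate: it was 116, 108 and 119 CPM in cDCs with 0, 1 and 2 panel genes, then 299, 710, 318 and 446 CPM in mature DCs with 3, 4, 5 and 6 or more. Il4i1 was 26.8, 30.3 and 70.2 CPM, then 393, 536, 409 and 535 CPM. Inside the gate Fscn1 was higher in each class than in the one before, as was the depth of the cells, and the other 4 genes were not.

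Within the gate single cells carried the genes together but not evenly. With every cell thinned to 1000 UMIs (48 shallower cells left out), 81.6% of 1085 mature DCs had a Ccr7 UMI, 72.4% a Fscn1 UMI, 54.1% a Ccl22 UMI, 33.5% an Il4i1 UMI and 14.1% a Ccl17 UMI. Without thinning these shares were 94.2%, 89.4%, 74.2%, 61.1% and 24.0% at a median of 3308 UMIs. Macrophages, the gate with most cells, had thinned shares of 0.450%, 0.377%, 0.355%, 0.282% and 0.139% in the same order. They were not free of the genes. Under CD40 antibody they held 198 Il4i1 UMIs in B2m-null and 29 in control tumours, beside 101 and 103 Ccl22 UMIs. The source of these UMIs was not tested. At least 2 of the 5 genes were seen in 84.5% of thinned mature DCs, 3.86% of cDC2, 0.766% of cDC1 and 0.296% of macrophages.

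Ccl17 came from few cells. In the isotype groups the top 10% of mature DCs for Ccl17 held 87.6% of the gate's Ccl17 UMIs, up to 134 UMIs in 1 cell, while 76.0% of cells had none. The top 10% of cells for each other gene held 53.7% for Ccl22, 46.3% for Il4i1, 30.9% for Fscn1 and 28.1% for Ccr7. Mature DCs with a Ccl17 UMI after thinning (141 isotype cells) held Ccl22 at 5234 CPM, against 1491 CPM in the other 857. The direction was the same in 9 of the 10 isotype mice. For the other members it was not: Fscn1 was higher in cells with Ccl17 in 2 of 10 mice, Ccr7 in 4 and Il4i1 in 5. This comparison is a description over cells, with no test.

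Over all immune cells of a mouse, 5 members fell with CD40 antibody in control tumours and 4 in B2m-null tumours. Ccr7 stood at 54.5, 66.5, 108, 116 and 123 CPM in the 5 control isotype mice and at 9.63 and 12.6 CPM in the 2 control CD40 mice. In B2m-null tumours it was 46.1, 74.8, 91.9, 117 and 197 CPM under isotype and 9.56, 11.3, 14.6 and 34.2 CPM under CD40 antibody. All CD40 values lay below all isotype values in both genotypes. The log2 change was -3.00 in control tumours (edgeR adjusted p = 0.00170) and -2.50 in B2m-null tumours (adjusted p = 0.000469). A fall over all immune cells cannot tell fewer cells of a type from less RNA per cell.

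Both chemokine genes fell in both genotypes. Ccl22 was 35.1, 45.4, 71.5, 94.2 and 95.6 CPM under isotype and 3.46 and 4.11 CPM under CD40 antibody, a log2 change of -4.05 (edgeR adjusted p = 0.00325). In B2m-null tumours it was 29.3, 81.3, 84.4, 121 and 171 CPM under isotype and 5.39, 8.48, 20.01 and 48.4 CPM under CD40 antibody. There 1 CD40 mouse stood above the lowest isotype mouse, and the log2 change was -2.18 (adjusted p = 0.00783). That call was lost without B2m-null CD40 replicate 2 (-1.38, adjusted p = 0.103) and without B2m-null isotype replicate 1 (adjusted p = 0.0889).

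Ccl17 ranged from 11.1 to 51.6 CPM in control isotype mice, against 0.625 and 1.85 CPM under CD40 antibody (log2 change -4.60, edgeR adjusted p = 0.00263). In B2m-null tumours the range was 10.2 to 83.9 CPM against 2.87 to 9.38 CPM, with no overlap (log2 change -2.52, adjusted p = 0.00374). Fscn1 ranged from 33.9 to 80.2 CPM against 3.58 and 5.23 CPM in control tumours (log2 change -3.60, adjusted p = 0.00275). In B2m-null tumours it ranged from 29.4 to 157 CPM against 5.28 to 29.9 CPM, which overlapped in 1 mouse (log2 change -2.24, adjusted p = 0.00364, and 0.0746 without B2m-null CD40 replicate 2).

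Il4i1 was the 1 member called between genotypes under CD40 antibody. It was 11.5, 15.4, 21.6, 25.9 and 28.5 CPM in control isotype mice and 1.98 and 2.15 CPM in control CD40 mice (log2 change -3.20, edgeR adjusted p = 0.00399). In B2m-null tumours it was 10.5, 19.0, 29.4, 36.1 and 43.4 CPM under isotype and 3.48, 5.34, 14.3 and 21.5 CPM under CD40 antibody, groups that overlapped (log2 change -1.23, adjusted p = 0.0531). Between the 2 CD40 groups the B2m-null mice were higher by 2.35 on the log2 scale (adjusted p = 0.0348), which was lost without B2m-null CD40 replicate 1 (1.14, adjusted p = 0.232). The difference of the CD40 effects between genotypes was 1.97 and did not pass (adjusted p = 0.0949), and 0 of 6 members passed this test of the difference, where 19.1% of genes did.

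By count, 5 of the 6 genes fell with CD40 antibody in control tumours, where 11.8% of 13880 genes tested fell and 26.3% changed in either direction. In B2m-null tumours 4 of 6 fell, where 18.7% of genes fell and 37.2% changed. The median log2 change of the 6 genes was -3.40 and -2.21 in the 2 genotypes, against 0.02 and -0.01 over all genes. The B2m-null genotype alone, under isotype, gave 0 of 6 calls by edgeR where 5.76% of genes changed; 0 of 6 had an unadjusted p under 0.05, as 3402 of the 13880 genes had, and DESeq2 also called 0. Log2 differences there ran from -0.09 for Ccr4 to 0.49 for Ccl17. Under CD40 antibody 1 of 6 was called between genotypes, where 13.9% of genes were.

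**Figure D3:**
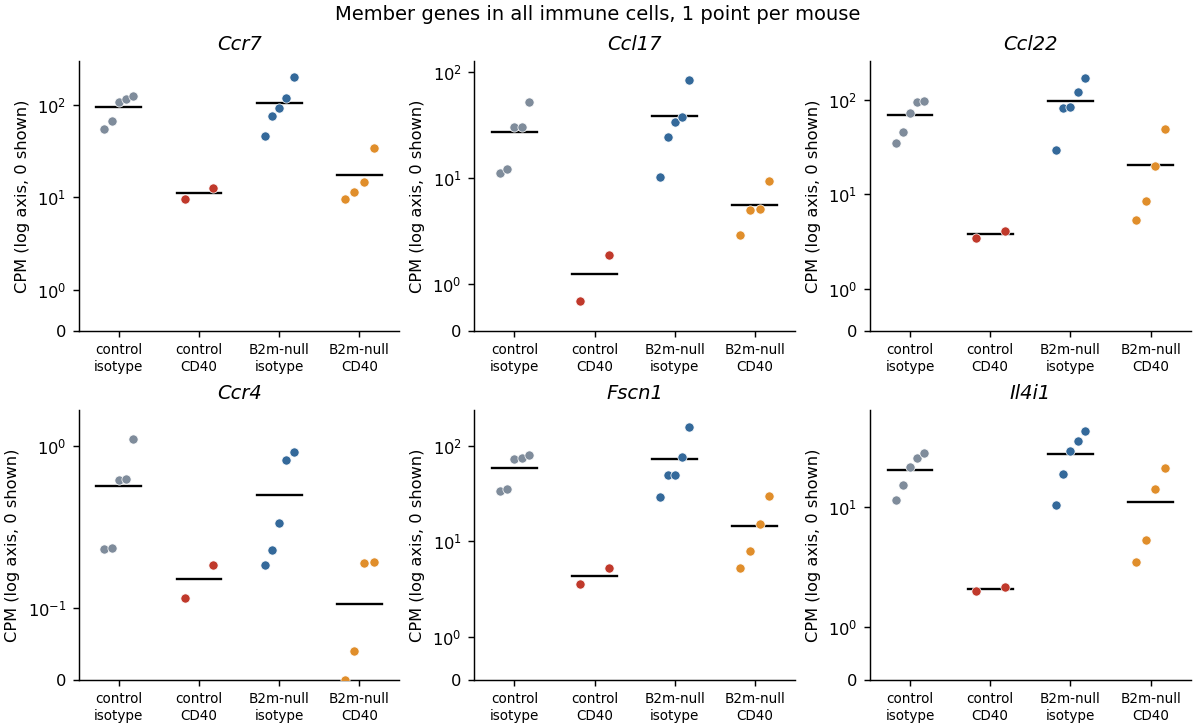
CPM of the 6 genes over all immune cells (log axis with 0 shown), 1 point per mouse in 4 groups; black lines are group means. In control tumours every CD40 mouse lies below every isotype mouse for all 6 genes, and in B2m-null tumours this holds for Ccr7 and Ccl17; Ccr4 reaches at most 1.12 CPM.

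The mature DC share of immune cells was compared next. The gate held 1.65% to 3.33% of a mouse's immune cells in control isotype mice (2.41% ± 0.72, SD, n = 5) and 0.0870% and 0.118% in the 2 control CD40 mice. In B2m-null tumours it held 1.35% to 4.98% under isotype (2.81% ± 1.35, SD, n = 5) and 0.107% to 1.22% under CD40 antibody (0.493% ± 0.497, SD, n = 4). The groups did not overlap. Two-sided exact permutation tests gave p = 0.0476 in control tumours, the smallest possible with 5 against 2 mice, and p = 0.0159 in B2m-null tumours. After Benjamini-Hochberg adjustment over 28 share tests these exact p-values were 0.191 and 0.111, so no share passed.

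Of the other dendritic gates, cDC2 stood at 2.55% ± 1.16 (SD, n = 5) under isotype against 0.145% and 0.219% in control tumours, and at 3.77% ± 1.22 (SD, n = 5) against 0.296% ± 0.222 (SD, n = 4) in B2m-null tumours. cDC1 stood at 2.24% ± 1.03 against 0.133% and 0.202%, and at 2.17% ± 0.90 against 0.226% ± 0.090, with the same numbers of mice. Among the 3 dendritic gates, mature DCs were 34.6% ± 5.8 of cells in control isotype mice and 21.9% and 23.8% in control CD40 mice. In B2m-null tumours they were 32.1% ± 9.4 under isotype and ran from 16.7% to 72% under CD40 antibody. CD8 T cells were 7.64% ± 3.53 against 25.4% and 29.4% of immune cells in control tumours, and 3.80% ± 2.90 against 21.8% ± 10.8 in B2m-null tumours, where 1 CD40 mouse lay among the isotype mice.

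Inside the mature DC gate Ccr7 was 2168 ± 135 CPM (SD, n = 5) in control isotype mice and 2094 ± 157 CPM (SD, n = 5) in B2m-null isotype mice. Only 1 control CD40 mouse had 10 or more mature DCs, and it stood at 2441 CPM (15 cells). The 3 such B2m-null CD40 mice stood at 1336, 1424 and 2244 CPM, on 18, 11 and 17 cells. Fscn1 was 1673 ± 221 and 1583 ± 267 CPM in the 2 isotype groups, 3037 CPM in the control CD40 mouse, and 1068, 1466 and 3090 CPM in the B2m-null CD40 mice. Ccl22 was 1663 ± 380 and 2161 ± 492.5 CPM under isotype, 961 CPM in the control CD40 mouse and 1675, 3074 and 3347 CPM in the B2m-null CD40 mice.

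Il4i1 was the member called inside the gate. It stood at 342, 417, 417, 483 and 489 CPM in B2m-null isotype mice and at 593, 726 and 1030 CPM in B2m-null CD40 mice, without overlap. With mice of 10 or more cells, since too few had 20, the log2 change was 0.86 ± 0.19 (SE; edgeR adjusted p = 0.0110). It was 1 of 5 members tested, where 4.15% of 4480 genes changed. The call was lost with lanes as the unit (0.50, adjusted p = 0.307, 1.64% of genes called), without B2m-null isotype replicate 1 (0.63, adjusted p = 0.154) and without 1 mouse of B2m-null CD40 replicate 1 (0.62, adjusted p = 0.123). Ccr7 (-0.30), Fscn1 (0.25), Ccl22 (0.36) and Ccl17 (0.84) did not pass.

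Ccl17 varied widely between mice of a group. It was 212, 404, 423, 428 and 951 CPM in mature DCs of control isotype mice and 169, 169, 386, 409 and 478 CPM in B2m-null isotype mice. In B2m-null CD40 mice it was 147, 182 and 1266 CPM, the last on 96 UMIs in 11 cells. The 22 mature DCs of the control CD40 lanes held 3 Ccl17 UMIs in all, against 152 Ccr7 UMIs. In the fit by lanes this was a log2 change of -3.76 that did not pass (edgeR adjusted p = 0.322), and 0 of 5 members were called there, where 0.0814% of 8602 genes were. That fit holds control CD40 as 1 sample, which is assumed to vary like the other groups, so its p-values carry no spread of that group. Of the 5 members 3 had an unadjusted p under 0.05 in it, as had 671 of the 8602 genes. Between genotypes under CD40 antibody the fit by lanes gave log2 differences of 3.63 for Ccl17, 1.09 for Ccl22, 0.93 for Il4i1, -0.56 for Fscn1 and -0.23 for Ccr7. The difference of CD40 effects was 4.30 for Ccl17, 0.91 for Il4i1, 0.70 for Ccl22, -0.51 for Fscn1 and -0.18 for Ccr7. Both sets of differences rest on the 22 control CD40 cells as 1 sample, with the 3 Ccl17 UMIs given above. They are given as sizes only, and no member is called on them. Between genotypes under isotype 0 of 5 members passed, where 0.775% of 4648 genes did; Ccl22 had the 1 unadjusted p under 0.05 (log2 difference 0.40, adjusted p = 0.313), as had 554 genes.

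**Figure D4:**
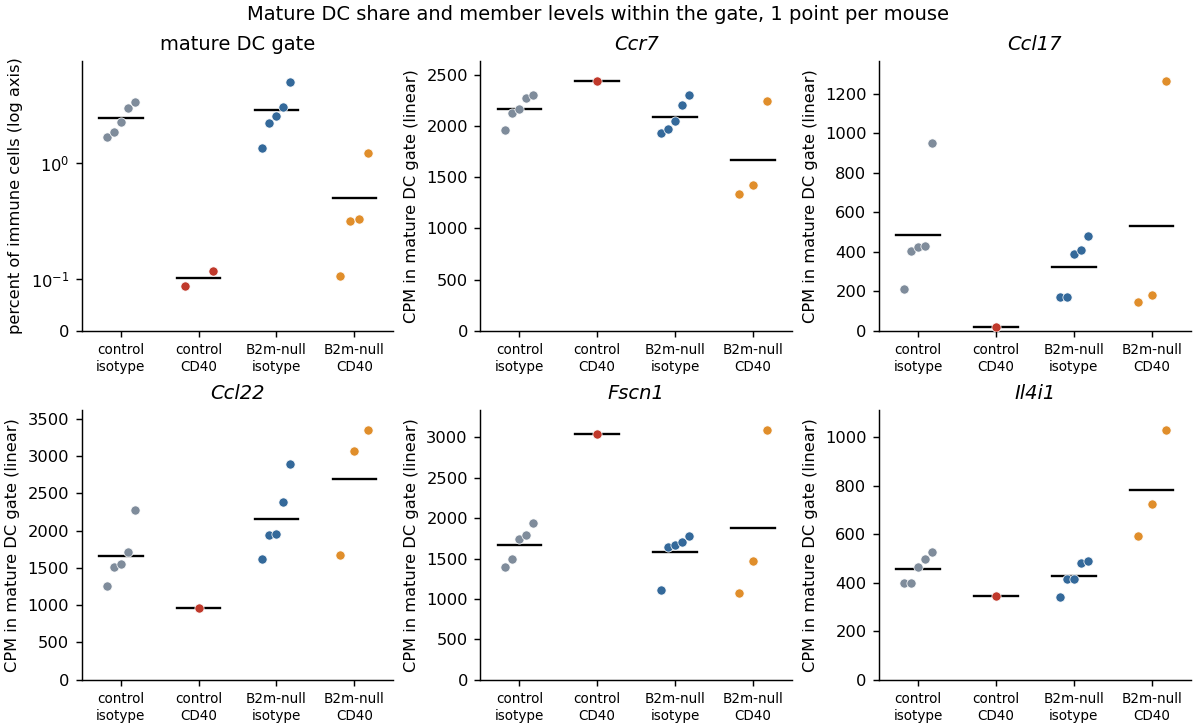
Mature DC share of immune cells (log axis) and CPM of 5 genes within the gate (linear axes), 1 point per mouse, black lines for means; level panels show mice with 10 or more mature DCs. The share is 1.35% to 4.98% in isotype mice and 0.0870% to 1.22% in CD40 mice, while Ccr7 spans 1336 to 2441 CPM in all groups.

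The gate's contribution to the whole-compartment falls was added up from summed counts. Mature DCs made up 55.8% of the Ccr7 difference in control tumours and 61.6% in B2m-null tumours, 60.2% and 68.1% of the Ccl22 difference, 66.7% and 72.1% of the Fscn1 difference and 54.4% and 61.6% of the Il4i1 difference. For Ccl17 mature DCs gave 46.6% and cDC2 12.5% of the difference in control tumours, and 22.4% and 28.2% in B2m-null tumours. These shares come from sums over a group and have no spread between mice, and their differences between genotypes were not tested. In cDC2, Ccl17 was 113 ± 108 CPM in control isotype mice and 250 ± 133 CPM in B2m-null isotype mice (SD, n = 5 each), with overlapping mice (edgeR adjusted p = 0.377). No member was called in cDC2 by mice, where 1.36% and 4.06% of genes changed with CD40 antibody, 1.47% and 0.781% between genotypes and 2.16% in the difference of effects. None was called in cDC1 either, where the same shares were 1.36%, 1.25%, 1.84%, 0.0639% and 0.192% and some fits used lanes. In cDC1, Fscn1, Il4i1 and Ccr4 were too low to test, and between genotypes under isotype only Ccr7 was tested. Ccr7 there had 107 UMIs in 475 B2m-null isotype cells and 1 UMI in 51 B2m-null CD40 cells, a log2 change of -3.68 by lanes. The absence of calls in cDC1 is thus no measure of unchanged levels. In cDC2 of control tumours Ccr7 (248 UMIs in 591 isotype cells, 0 in 40 CD40 cells), Ccl22 and Il4i1 had an unadjusted p under 0.05 in the fit by mice, as had 663 of 5508 genes. In the other cDC2 comparisons such a p was found for Ccl22 with CD40 antibody in B2m-null tumours (1147 of 5644 genes), Ccl17 between genotypes under isotype (686 of 5644), Ccl17 and Il4i1 between genotypes under CD40 antibody (690 of 5508) and Il4i1 in the difference of effects (844 of 5508).

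Some mature DCs lacked all 5 genes. After thinning, 3.96% of mature DCs had no UMI of any member, 3.92% and 2.60% in the control and B2m-null isotype groups and 0% of 22 cells in control CD40. In B2m-null CD40 it was 16.9% of 65 cells. Of the cells there tied to a mouse, 4 of 18 and 4 of 10 had none in a pair of mice, and 0 of 15 and 0 of 7 in the other pair.

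Member UMIs in the CD8 T gate also fell with CD40 antibody. Ccr7, which naive and central memory T cells use to enter lymph nodes, stood at 34.9, 39.5, 77.4, 82.8 and 99.0 CPM in control isotype mice and at 14.7 and 18.9 CPM in control CD40 mice (log2 change -1.95, edgeR adjusted p = 0.00112). In B2m-null tumours it was 37.9, 51.5, 55.4, 127 and 136 CPM under isotype and 11.4, 13, 19.2 and 31.2 CPM under CD40 antibody (log2 change -2.22, adjusted p = 0.00103). The groups did not overlap in either genotype. Together with Fscn1 (-3.13 and -3.20), Il4i1 (-2.07 and -2.56), Ccl22 in control tumours (-2.81) and Ccl17 in B2m-null tumours (-3.41), 4 of 5 members tested fell in each genotype, where 17.3% and 5.18% of 10087 genes fell. Between genotypes 0 of 5 were called under isotype or CD40 antibody, nor for the difference of effects, where 0.793%, 8.04% and 10.6% of genes were. Under isotype Ccl17 (log2 difference 2.63, edgeR adjusted p = 0.0818) and Il4i1 (1.69, adjusted p = 0.0979) had an unadjusted p under 0.05. Such a p was found for 1491 of the 10087 genes. With lanes as the unit 1 of 5 was called for each CD40 effect. Without control CD40 replicate 1 the count in control tumours was 1, and without B2m-null isotype replicate 1 the count in B2m-null tumours was 2. Ccr7 passed in all of these. No share of all genes called is given for these alternatives, so their counts of members have no background.

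Values that bear on dendritic transcripts in T cell barcodes are given beside this result. CD8 T cells had a median of 3905.5 UMIs under isotype and 1726 UMIs under CD40 antibody in control tumours, and 2932 and 2481 UMIs in B2m-null tumours. The ratio of Ccr7 to Ccl22 UMIs was 1.27 in mature DCs of control isotype mice (interval 1.21 to 1.33) and 3.38 in their CD8 T cells (2.80 to 4.09), and 0.950 (0.915 to 0.987) against 3.91 (2.97 to 5.21) in B2m-null isotype mice. In CD8 T cells with no UMI of Ccl17, Ccl22, Fscn1 or Il4i1, Ccr7 was 41.5 CPM under isotype and 13.8 CPM under CD40 antibody in control tumours, and 43.0 and 12.1 CPM in B2m-null tumours. Over all CD8 T cells the same sums were 61.6 and 15.7 CPM, and 67.8 and 15.8 CPM. Set beside macrophages of the same groups, the other members were not uniformly lower in CD8 T cells. In control isotype Ccl22 was 18.3 CPM in CD8 T cells (interval 15.4 to 21.5) and 12.5 CPM in macrophages (11.5 to 13.6), Fscn1 11.5 and 7.94 CPM, Il4i1 6.97 and 3.63 CPM, and Ccl17 3.42 and 4.58 CPM. In B2m-null isotype all 4 were higher in CD8 T cells: Ccl22 was 17.3 against 8.71 CPM, Fscn1 10.7 against 5.47 CPM, Il4i1 19.7 against 3.20 CPM and Ccl17 21.3 against 5.22 CPM. After thinning, the share of control isotype CD8 T cells with a UMI was 0.809% for Ccl22 (0.419 to 1.41), 0.742% for Fscn1, 0.472% for Il4i1 and 0.202% for Ccl17, against 0.514% (0.364 to 0.705), 0.501%, 0.257% and 0.244% of macrophages. T cell barcodes that met the mature DC or cDC1 rule had been set apart as mixed, while cDC2 markers set none apart. The gate itself thus limits the mature DC and cDC1 panels but not the cDC2 panel. The summed cDC2 panel in the CD8 T gate, with all 6 genes detected, moved with CD40 antibody. It was 40.6 to 210 CPM in control isotype mice and 17.2 and 22.2 CPM in control CD40 mice. In B2m-null tumours it was 120 to 342 CPM under isotype and 9.75 to 23.9 CPM under CD40 antibody. The 5 cDC1 genes moved too. They summed to 8.92 to 29.2, 2.04 and 7.54, 11.1 to 37.9 and 2.32 to 5.20 CPM in the same order, with Gcsam at 0 in B2m-null CD40 mice. The 10 mature DC panel genes, some of which T cells also use, summed to 245 to 469, 233 and 273, 151 to 254 and 226 to 238 CPM in the same order, with Apol7c at 0 in B2m-null isotype mice. Their part in the fall of Fscn1, Il4i1, Ccl22 and Ccl17 was not tested.

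**Figure D5:**
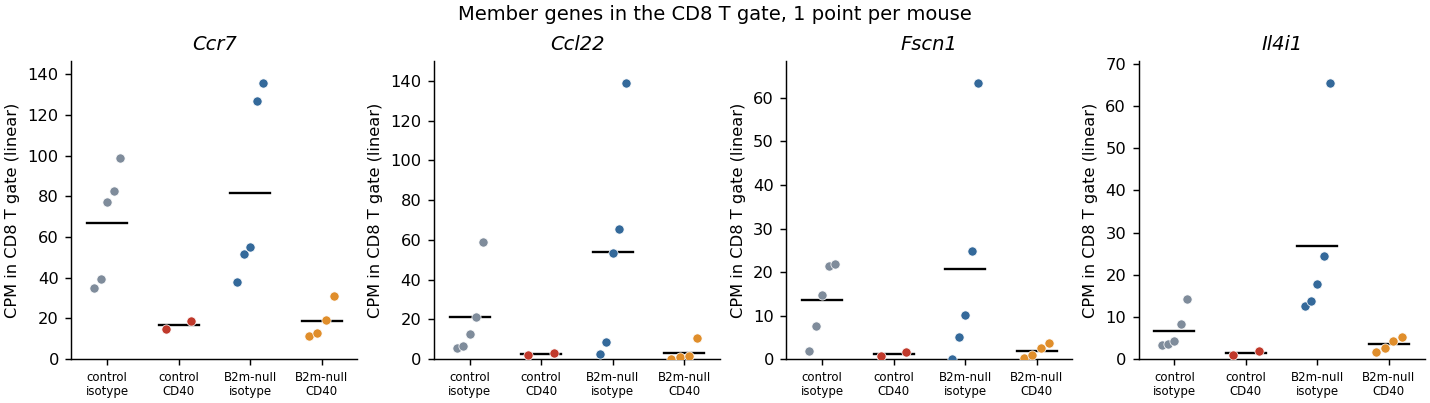
CPM of 4 genes in the CD8 T gate (linear axes), 1 point per mouse with 20 or more CD8 T cells, black lines for means. Ccr7 lies between 34.9 and 136 CPM in isotype mice and between 11.4 and 31.2 CPM in CD40 mice; Ccl22, Fscn1 and Il4i1 reach 0 to 10.5 CPM in CD40 mice.

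Other lymphocytes had fewer cells. In the CD4 T gate Ccr7 was 62 UMIs in 159 B2m-null isotype cells (91.2 CPM, exact Poisson interval 69.9 to 117) and 5 UMIs in 571 B2m-null CD40 cells (3.03 CPM, 0.983 to 7.07). With mice of 10 or more cells this fall passed (edgeR adjusted p = 0.000435), and with Ccl17 both members tested were called, where 9.42% of 3343 genes were. Ccr7 passed in all 29 alternatives that gave a value and Ccl17 in 18 of 24. In control tumours Ccr7 was 40.8 and 13.1 CPM in CD4 T cells and did not pass (adjusted p = 0.339, where 5.43% of genes did). In regulatory T cells it was 93.3 CPM on 91 UMIs in B2m-null isotype and 4.70 CPM on 1 UMI (interval 0.119 to 26.2) in B2m-null CD40. That fall was called (adjusted p = 0.0374) and lost its call in 7 of 24 alternatives (1.49% of 3225 genes fell). In CD4 T cells without a UMI of Ccl17, Ccl22, Fscn1 or Il4i1, Ccr7 was 54.7 CPM on 31 UMIs in B2m-null isotype and 3.17 CPM on 5 UMIs in B2m-null CD40, and 31.7 and 13.2 CPM on 18 and 9 UMIs in control tumours. In such regulatory T cells it was 25.5 CPM on 19 UMIs and 4.83 CPM on 1 UMI in B2m-null tumours, and 18.2 and 30.8 CPM on 15 and 2 UMIs in control tumours. Markers of other cell types moved with the fall in CD4 T cells of B2m-null tumours. The B cell genes Cd79a, Cd79b, Ms4a1 and Iglc2 summed to 0 to 326 CPM over B2m-null isotype mice (mean 93.8, all 4 detected) and to 0 to 6.46 CPM over B2m-null CD40 mice (mean 2.57, Ms4a1 at 0). The 6 cDC2 genes, all detected in both groups, summed to 113 to 782 CPM over isotype mice and 0 to 233 CPM over CD40 mice. The 5 plasmacytoid dendritic cell genes summed to 0 to 111 and 0 to 10.8 CPM in the same order, with Siglech, Klk1 and Cox6a2 at 0 under CD40 antibody. In regulatory T cells the cDC2 genes summed to 189 to 731 CPM over 4 isotype mice and to 118 and 491 CPM in 2 CD40 mice. The part of these transcripts in the falls was not tested. In B cells Ccr7 stood at 465.7, 350, 412 and 152 CPM on average over 3, 2, 2 and 4 mice for control tumours under isotype and CD40 antibody and then B2m-null tumours in that order.

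Ccr4, the receptor for both chemokines, was sparse. Its 117 UMIs came from 111 immune cells: 37 UMIs in T cells that met no subset gate, 20 in CD4 T cells, 19 in regulatory T cells and 8 in CD8 T cells, with the rest spread over 7 gates with at most 11 UMIs each. A stricter gate lowered the regulatory T share of Ccr4 UMIs from 16.2% to 6.84%. A Ccr4 UMI was found in 4.16% of 457 regulatory T cells, 1.37% of 1242 CD4 T cells, 0.0572% of 13974 CD8 T cells and 0.0138% of 29061 macrophages. Over all immune cells the level was 0.232 to 1.12 CPM in control isotype mice and 0.115 and 0.185 CPM in control CD40 mice, and 0.184 to 0.921 against 0 to 0.193 CPM in B2m-null tumours. The log2 changes of -1.82 and -1.69 did not pass (edgeR adjusted p = 0.0866 and 0.0552). Regulatory T cells were 0.918% of immune cells in control isotype and 0.139% in control CD40, and 0.732% and 0.351% in the B2m-null groups, where the mice overlapped. With a stricter gate the mean shares over mice were 0.378% and 0.0282% in control tumours and 0.296% and 0.118% in B2m-null tumours.

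Of the CCR7 ligands, Ccl19 had 448 UMIs in 762 fibroblasts, with sums of 54.0 and 52.6 CPM in control tumours under isotype and CD40 antibody and 15.4 and 101 CPM in B2m-null tumours, and 0 UMIs in 1133 mature DCs, which allows up to 0.633 CPM at a floor of 3 counts. All immune cells held 65 Ccl19 UMIs. Ccl21a had 47 UMIs in endothelial cells, all from the control CD40 lanes, and 64 in immune cells, 56 of them from the same lanes. The stromal values are sums over few stromal cells that the CD45 beads were meant to leave out, so no test was made. Of 8 ligand, decoy and neighbour genes (Ccl19, Ccl21a, Ccl21b, Ackr2, Ackr4, Ccr8, Ccl1 and Cx3cl1), 3 could be tested over all immune cells. Cx3cl1, the chemokine gene between Ccl22 and Ccl17, fell in both genotypes (log2 -2.88, edgeR adjusted p = 0.00658, and -1.78, adjusted p = 0.0196). Ccr8, a receptor of tumour regulatory T cells, fell in control tumours (-1.86, adjusted p = 0.0182) and did not pass in B2m-null tumours (-0.89, adjusted p = 0.15). Ccl1, a ligand of that receptor, did not pass in either (0.13, adjusted p = 0.933, and 0.58, adjusted p = 0.555). These were 2 falls of 3 genes tested in control and 1 of 3 in B2m-null tumours, beside 11.8% and 18.7% of all genes.

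The related lists, fixed with earlier results of these data known, moved as follows over all immune cells. Of 18 maturation genes 6 fell and 0 rose in control tumours (median log2 change -0.51, against 0.02 over all genes), where 11.8% of all genes fell and 14.6% rose. The list's genes that fell include Il12b (-3.28), Icosl (-1.57), Cd86 (-1.43) and Cd80 (-1.19). In B2m-null tumours 5 fell and 3 rose (median 0.09), where 37.2% of all genes changed, near the list's own share. Il12b was at -2.34, Icosl at -1.29, the interleukin 15 receptor gene Il15ra at 1.27 and Cd83 at -1.27. Inside mature DCs of B2m-null tumours, where 4.15% of genes changed, 1 of 18 rose, Cd40 itself (1.47, edgeR adjusted p = 0.00159), and 1 fell, the costimulatory ligand gene Cd80 (-1.33, adjusted p = 0.0163). Of 8 genes of amino acid catabolism 4 were tested and 3 fell in control tumours, Kmo (-2.78), Kynu (-2.20) and Ahr (-1.19), against the 11.8% of all genes given above. In B2m-null tumours 2 of the 4 fell, Kmo (-2.81) and Ahr (-1.20), where 18.7% of all genes fell. Kmo is also one of the markers of the cDC2 gate.

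Of 8 genes that accompany Ccr7 in resting T cells, 6 rose and 0 fell in CD8 T cells of control tumours under CD40 antibody (median log2 change 1.23), where 16.1% of all genes rose, while Ccr7 fell. They include S1pr1, the receptor for exit from tissue (2.95, edgeR adjusted p = 7.98e-06), Klf2, which drives S1pr1 (1.82, adjusted p = 0.000189), Klf3 (2.18) and Tcf7 (1.33). In B2m-null tumours 0 of 8 passed (median 0.14), where 12.7% of genes changed. The list's difference between genotypes was tested gene by gene, and 1 of 8 passed, S1pr1 (-2.02, adjusted p = 0.0118), near the 10.6% of all genes that passed. Of 8 genes that accompany Ccr4, 2 fell over all immune cells in each genotype, where 11.8% of all genes fell in control and 18.7% in B2m-null tumours, the latter near the list's share. They were Itgae in both (-3.06 and -3.18), with Ccr8 in control and Il13 (-4.77) in B2m-null tumours; Itgae also marks cDC1. Of 8 cytoskeleton genes beside Fscn1, 1 rose in control tumours, Tmsb10 (1.12), where 14.6% of all genes rose. In B2m-null tumours 4 rose, where 18.5% of all genes did, and Marcks, known from mature DCs, fell (-1.08).

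Across 68 combinations of gate and group, the genes most like each member in log2(CPM + 1) were sought among 11875 genes, as a description over points that share lanes and depth. Ccl22 and Il4i1 were among each other's 3 nearest (Pearson r = 0.775), with Strip2 (0.824) and Il12b (0.804) nearer to Ccl22 and Tmem123 (0.763) next for Il4i1. Ccr7 was nearest to Tmem123 (0.805) and Rel (0.776), Ccl17 to Adam23 (0.806), Wnt11 (0.778) and Nectin1 (0.777), and Ccr4 to Itgb8 (0.890), C2cd4b (0.863) and Neb (0.847). The 3 nearest to Fscn1, Slco5a1, Cacnb3 and Tmem150c (0.798, 0.785 and 0.746), are themselves panel genes of the mature DC gate. Between members, r was 0.742 for Ccl17 and Ccl22, 0.518 for Ccl17 and Ccr7, and at most 0.186 for Ccr4 with any other. With 117 Ccr4 UMIs in all immune cells, every correlation of Ccr4 rests on few UMIs.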

How the data were processed

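Counts of unique molecular identifiers per gene and barcode were used as deposited by the authors. Per the labels they come from 3' version 3 chemistry, and per the submitters' processing notes from Cell Ranger 3.0.0, bcl2fastq 2.20.0.422 and the mm10 build. Hashtag counts in the same files gave the mouse of each cell (Gaussian mixture, posterior 0.9, at least 20 hashtag counts). Barcodes with fewer than 200 genes or above 10% mitochondrial counts were dropped. Doublets within 1 mouse were not removed. The members, lists and gate markers were chosen with earlier results of these data known. Gate thresholds were set after the panels' distributions were seen, without the members' values. Named list genes are at most 4 a list with an adjusted p under 0.05, largest change first. Counts were summed per mouse and gate and tested with edgeR 4.0.16 (quasi-likelihood, TMM, filterByExpr, R 4.3.3), all groups in 1 fit, with Benjamini-Hochberg adjustment over all genes tested. A gate needed 20 cells a mouse. Where fewer than 2 mice of a group had them, 10 cells were used, and failing that lanes (reported so by a choice made after seeing the cell numbers), with the control CD40 lanes as 1 sample whose spread is taken from the other groups. CPM relate to all UMIs of the same cells. UMIs count 1 end of a molecule, so they do not scale with gene length. Alternatives included DESeq2 1.42.0. On simulated counts for CD40 in B2m-null tumours, the test over all immune cells (13573 genes) recovered 74% of 2-fold and 95% of 4-fold changes, and that in mature DCs (4376 genes) 21% and 95%.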

Additional observations from a re-analysis of the deposited data

Results flagged for a closer look

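Among 55 groups of mice checked for 1 mouse far from the others, 6 had one, where chance gives about 1 in 20. In 3 of the 6 the value lay in the CD8 T gate: Ccl22 was 58.8 CPM in 1 control isotype mouse against 5.82 to 21.2 CPM in the other 4, Ccl22 was 10.5 CPM in 1 B2m-null CD40 mouse against 0 to 1.46 CPM in the other 3, and Il4i1 was 65.4 CPM in 1 B2m-null isotype mouse (64 cells) against 12.6 to 24.4 CPM in the other 4. That last mouse, from replicate 1, was also lowest for Fscn1 in mature DCs, at 1114 CPM on 14 cells against 1646 to 1783 CPM. It was lowest again for the share of mature DCs among dendritic cells, at 15.9% against 33.5% to 40.2%. The CD8 T share of 1 control isotype mouse was 13.8% against 4.61% to 6.85% in the others. No member's CD40 effect differed between genotypes by the test of the difference itself.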

How the results depend on the processing

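Over all immune cells, Ccr7 and Ccl17 kept their calls with CD40 antibody in both genotypes under every alternative that gave a value. Direction was compared for members with a call and for the CD40 effects on the dendritic gate shares, and none of these reversed. For members without a call it was not compared. Leaving out a replicate or mouse left 5 to 5 members called with CD40 antibody in control tumours, 2 to 6 in B2m-null tumours, 0 to 3 between genotypes under CD40 antibody and 0 to 2 for the difference of effects. Neither of the 2 control CD40 mice could be left out, since a fit by mice needed 2 mice a group. Leaving out a control CD40 lane kept both mice. In every gate, the ranges for comparisons with this group therefore do not test the loss of one of its mice. The count between genotypes under CD40 antibody (1) was 0 by lanes, 3 by DESeq2 and 2 without the 5% of cells with most UMIs.

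In mature DCs the count for CD40 antibody in B2m-null tumours (1) was 0 by lanes, 0 without the low-count filter and 0 to 1 in leave-one-out; between genotypes under isotype the count (0) was 1 without that filter. In cDC2, removing the filter gave 4, 2, 1, 2 and 1 calls for the 2 CD40 effects, the 2 genotype effects and their difference, against 0; lanes gave 1 for CD40 antibody in control tumours and 1 between genotypes under CD40 antibody, both with control CD40 as 1 sample, and leave-one-out 0 to 1 for CD40 antibody in B2m-null tumours. In CD8 T cells the counts (4 and 4) were 1 and 1 by lanes, and 1 to 5 and 2 to 5 in leave-one-out; between genotypes under isotype (0) it was 2 without the filter and 0 to 1 in leave-one-out. In CD4 T cells the count in B2m-null tumours (2) was 4 without the filter, 1 by DESeq2, 1 without the 5% of cells with most UMIs and 0 to 2 in leave-one-out; without the filter it was 1 in control tumours and 1 between genotypes under isotype. In regulatory T cells the count in B2m-null tumours (1) was 0 by DESeq2, 0 at 5% mitochondrial counts, 0 without the top 5% and 0 to 1 in leave-one-out; between genotypes under isotype it was 4 without the filter and 0 to 1 in leave-one-out. Apart from lanes in mature DCs of B2m-null tumours, no share of all genes called is given for the alternatives in this section. Their counts of members thus have no background. The causes were not tested.

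Same-numbered lanes deviated together in some pairs of groups and not in others, so the numbers were not taken to pair the samples: the correlations were -0.052, 0.080 and 0.263 over all immune cells and 0.022, 0.128 and 0.209 in CD8 T cells, and at most 0.148 in the other gates. With the replicate number as a block, lanes gave 4 members called with CD40 antibody in B2m-null tumours over all immune cells, 0 in mature DCs, 0 in regulatory T cells and 3 in CD8 T cells, and 1 in cDC2 between genotypes under isotype. The same lanes with no replicate block gave 4, 0, 0, 1 and 0 in the same order. A stricter gate moved the regulatory T share of Ccr4 UMIs from 16.2% to 6.84%, and thinning moved Ccr7 and Fscn1 in control isotype mature DCs to 2479 and 1978 CPM. The 22 control CD40 mature DCs limit any statement on levels there.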

Other observations

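The NK, neutrophil and plasmacytoid dendritic cell gates entered the sums over all immune cells but had no comparison of their own. NK cells held Ccr7 at 32.1 CPM and Il4i1 at 28.5 CPM, on 117 and 104 UMIs. Fscn1, Ccl17 and Ccl22 were near these there, on 106, 101 and 97 UMIs. All 101 Ccl17 UMIs came from the B2m-null isotype group. Neutrophils held Ccr7 at 8.46 CPM and Il4i1 at 1.88 CPM. Plasmacytoid dendritic cells, the interferon-producing type, held Ccr7 at 84.9 CPM in 709 cells and Ccl22 at 41.7 CPM. Melanoma cells, with a median of 21412 UMIs a cell, held all 6 genes at 0.062 to 3.04 CPM.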
